A study of Homo sapiens with 12 samples.

Results

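Mitochondrial ribosomal proteins are the protein subunits of the ribosome inside mitochondria. Here they are the protein-coding genes of the counts table whose symbol, found by Ensembl identifier on the primary assembly, begins with MRPL or MRPS followed by a digit. The rule found 70 of the 20595 genes in the table, 43 with MRPL and 27 with MRPS symbols. GENCODE v29 lists 78 genes under the same rule, and the other 8 (MRPL12, MRPL14, MRPL41, MRPL44, MRPL50, MRPL57, MRPS10 and MRPS26) were not analysed here. The rule itself used no measured value, although members and lists were chosen with earlier results of these data known. RNA was sequenced from 2 lung adenocarcinoma cell lines that the study describes as MDM2 amplified, A549, with wild-type p53 (p53 WT), and H1792, with mutant p53. Cells of each line received either DMSO, the solvent, or RG7112, an inhibitor of the binding of MDM2 to p53, at 1 μM for 48 h, with 3 samples in each of 4 groups. The column names of the deposited table carry 0.1 μM in place of 1 μM, and the dose of the labels is used here. Each line is a single established line, and nothing says that its replicates came from separate cultures, so p-values measure only the spread between these samples, which may be technical.

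The mitochondrial ribosome makes the few proteins that the mitochondrial genome encodes, all of them subunits of the respiratory chain and ATP synthase. Its RNAs come from the mitochondrial genome, whereas its proteins are encoded in the nucleus, made in the cytosol and imported. Many of the proteins have bacterial homologs (such as MRPL2, MRPL3 and MRPS12), and others are found only in mitochondrial ribosomes (such as MRPL37, MRPL51 and MRPS34). MRPL36 is a very small protein of the large subunit with a bacterial homolog.

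The 12 samples held 2011916 to 6218825 counts, so that 3 counts stood for up to 1.39 CPM (counts scaled to equal library size, with TMM normalisation between samples) in the shallowest library. The p53 target CDKN1A, which encodes the cell cycle inhibitor p21, rose with RG7112 in A549 from 37.3 ± 11.5 to 452 ± 440 CPM (SD, n = 3). The RG7112 samples of A549 were thus widely spread, up to 960 CPM. In H1792 CDKN1A averaged 7.35 CPM with DMSO and 8.09 CPM with RG7112. The summed level of 4 epithelial markers, almost all of it from the keratins KRT8 and KRT18, was 12705 to 16868 CPM with DMSO and 13830 to 20067 CPM with RG7112 in A549, and 1415 to 1627 CPM and 879 to 1104 CPM in H1792, where KRT8 and KRT18 were both called lower with RG7112. EPCAM stood at 0.667 CPM in A549 DMSO and 2.17 CPM in H1792 DMSO, and CDH1 at 0.411 CPM in H1792 DMSO. The summed level of 4 fibroblast markers, led by COL1A2 in H1792, was 1.86 to 9.43 CPM in A549 and 1138 to 1370 CPM in H1792, with no more than a small change of the sum between treatments of H1792 (1318 to 1370 and 1138 to 1328 CPM). Of these markers PDGFRB rose in H1792 from 0.571 to 4.77 CPM (log2 fold change 2.93, adjusted p = 0.022 by edgeR's quasi-likelihood test), while COL1A1 and COL1A2 were not called. The summed level of 4 leukocyte markers, nearly all from CD68, was 10.7 to 34.4 CPM with DMSO and 43.2 to 106 CPM with RG7112 in A549, without overlap, and 7.37 to 17.7 CPM in H1792, with CD3E and MS4A1 at 0 in all samples, and that of 3 endothelial markers was at most 1.86 CPM. The part of these markers in the members' results was not tested. In bulk RNA, fewer cells of a type and less RNA per cell cannot be told apart. Replicate 3 of both A549 groups held the highest summed level of the 70 genes in its group, and values without it are given where it matters.

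The summed level of mitochondrial ribosomal protein RNA was lower with RG7112 in both cell lines, by about a similar share. In A549 the 70 genes summed to 4093, 4456 and 5182 CPM with DMSO and to 3214, 3230 and 4019 CPM with RG7112. In H1792 the sums were 6835, 7264 and 7198 CPM with DMSO and 5906, 4995 and 4863 CPM with RG7112. In neither line did the treatments overlap, although in A549 the highest RG7112 sample lay close to the lowest DMSO sample. The means were 4577 ± 554 CPM with DMSO and 3488 ± 460 CPM with RG7112 in A549 (SD, n = 3), a change of -23.8%. In H1792 they were 7099 ± 231 and 5255 ± 568 CPM, a change of -26.0%. Scaled by library size only, an alternative added after the data were seen, the changes were -28.0% and -13.1%. MRPL and MRPS genes moved alike, by -23.4% and -24.5% in A549 and by -24.9% and -28.8% in H1792. The 84 cytosolic ribosomal protein genes, measured the same way, changed by -6.66% in A549 and by -33.5% in H1792. No test was made of these sums.

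**Figure D1:**
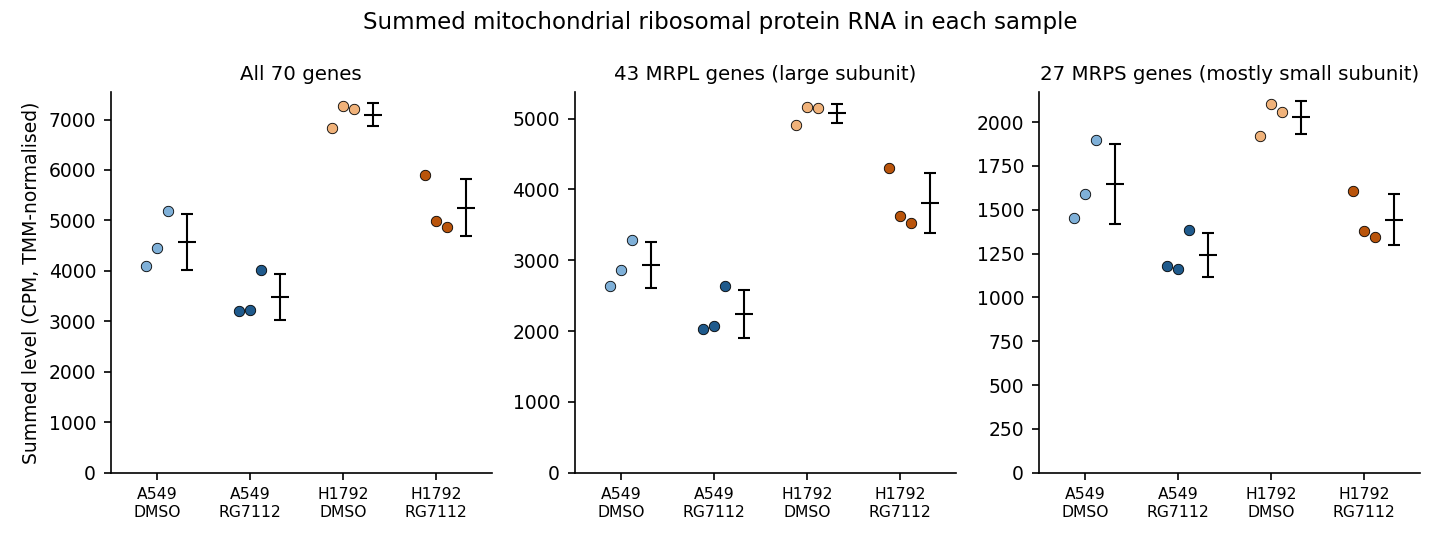
Summed level of the 70 mitochondrial ribosomal protein genes, and of the 43 MRPL and 27 MRPS genes among them, in CPM (TMM-normalised, vertical axis from 0) in each of the 12 samples by cell line and treatment. Points are samples and bars are means with SD (n = 3), and in every panel all RG7112 samples of a line lie below its DMSO samples and all H1792 DMSO samples lie above all A549 DMSO samples.

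In A549, most members were lower with RG7112. Of the 62 members with enough counts to be tested, 52 (83.9%) had a log2 fold change below 0, against 50.9% of all genes tested. Their median log2 fold change was -0.45, against -0.01 for all genes. Without DMSO replicate 3 it was -0.33 (all genes 0.01), and without replicate 3 of both treatments -0.46 (all genes -0.004). With edgeR's quasi-likelihood test and Benjamini-Hochberg adjustment over all genes, 3 members were called lower (adjusted p under 0.05) and 1 higher, which is 6.45% of the members tested against 8.38% of all genes, and by direction 4.84% lower against 4.03% and 1.61% higher against 4.35%. By this test calls were thus about as frequent among the members as elsewhere, but the number depended on the method. DESeq2 called 10 members lower and 2 higher, beside 700 lower and 731 higher among all genes. With all 12 samples in one edgeR fit, 12 members were called lower and 2 higher. With scaling by library size only, 7 members were called lower and 1 higher. At an unadjusted p under 0.05 the counts were 22 lower and 2 higher, which is 35.5% lower against 11.5% of all genes and 3.23% higher against 12.4%. All RG7112 samples lay below all DMSO samples for 21 members (33.9%, against 15.4% of all genes) and above them for 2 (3.23%, against 16.3%).

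MRPL51, a mitochondria-specific protein of the large subunit, had the largest called decrease in A549. Its level was 94.9, 90.5 and 139 CPM with DMSO and 55.8, 42.2 and 54.0 CPM with RG7112, with no overlap. Its log2 fold change was -1.11 (SE 0.22, adjusted p = 0.0251). Among edgeR's called decreases of A549 it alone passed the fold threshold of the study's rule for DEGs, an absolute log2 fold change over 1. Under that rule 2 members of 62 were called (3.23%, against 6.19% of all genes), 1 of them lower (1.61%, against 3.01%). The gene lies at chr12:6491886-6493841 on the minus strand (GRCh38) and overlaps NCAPD2 on the opposite strand, which had log2 fold changes of -2.52 in A549 and 1.37 in H1792. The overlap is of whole gene spans, and whether exons overlap was not checked. The sources used here do not say whether strand was used in counting, so reads of any shared exons cannot be told apart. The same holds for MRPL2 (with KLC4), MRPL11 (with PELI3), MRPL19 (with GCFC2), MRPL32 (with PSMA2), MRPL37 (with CYB5RL and SSBP3) and MRPS18A (with RSPH9), which also overlap genes of the opposite strand. This list is not complete: MRPL40, MRPL43, MRPS7 and MRPS25, among others, overlap genes of the opposite strand as well. MRPL53 (with CCDC142), MRPS16 (with DNAJC9) and MRPS24 (with URGCP-MRPS24), among others, overlap genes of their own strand.

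MRPL35, another protein of the large subunit with a bacterial homolog (chr2:86199355-86213794, plus strand), was at 35.9, 35.5 and 34.4 CPM with DMSO and 22.4, 16.7 and 15.2 CPM with RG7112. The groups were well apart, and the log2 fold change was -0.97 (SE 0.22, adjusted p = 0.0395). MRPL11 (chr11:66435075-66466738, minus strand), the homolog of a protein at the base of the flexible stalk that binds translation factors, was at 199, 208 and 264 CPM with DMSO and at 108, 107 and 137 CPM with RG7112. Again no samples overlapped (log2 fold change -0.95, SE 0.17, adjusted p = 0.0184). Without DMSO replicate 1, DMSO replicate 2, RG7112 replicate 1 or RG7112 replicate 2, no member was called lower in A549. The fold changes stayed about as large in those fits, from -1.24 to -1.02 for MRPL51, from -1.14 to -0.94 for MRPL35 and from -1.02 to -0.87 for MRPL11. MRPL51 and MRPL11 stayed called without DMSO replicate 3 (log2 fold change -0.88 and -0.80) and MRPL11 without RG7112 replicate 3 (-1.06), whereas MRPL51 lost its call without RG7112 replicate 3 (-1.14) and MRPL35 without either (-0.98 and -0.85). Without replicate 3 of both treatments, an alternative added after the data were seen, 6 members were called lower and 1 higher.

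MRPL49 (chr11:65122183-65127371, plus strand), a mitochondria-specific protein of the large subunit, was the 1 member called higher in A549. It was at 16.0, 18.7 and 15.4 CPM with DMSO and at 47.9, 66.4 and 101 CPM with RG7112. Every RG7112 sample was far above every DMSO sample, and the log2 fold change was 2.09 (SE 0.31, adjusted p = 0.00863). The gene overlaps FAU and SYVN1 on the opposite strand, which had log2 fold changes of -0.34 and 0.56 in A549, neither of them called (adjusted p = 0.365 and 0.493). MRPL36 was at 29.8, 39.5 and 30.2 CPM with DMSO and at 21.2, 20 and 32.1 CPM with RG7112. Here 1 RG7112 sample reached into the range of DMSO, and the log2 fold change of -0.45 (SE 0.25, adjusted p = 0.336) did not pass the test.

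**Figure D2:**
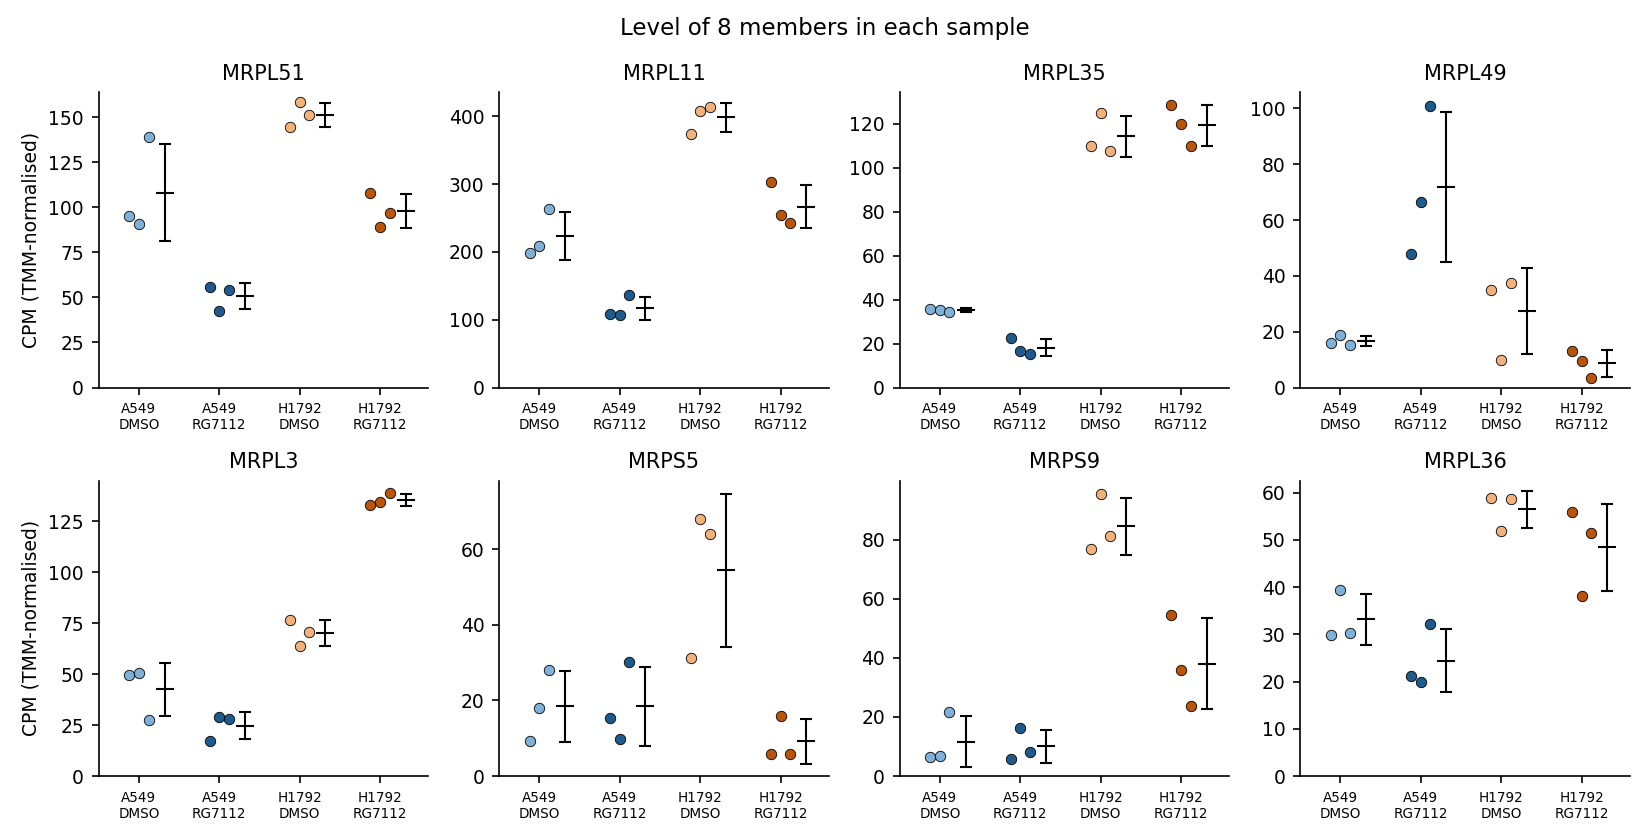
Level of 8 members in CPM (TMM-normalised, vertical axis from 0) in each sample by cell line and treatment. Points are samples and bars are means with SD (n = 3), with MRPL51 and MRPL11 lower with RG7112 in both lines, MRPL35 lower in A549, MRPL49 higher in A549, MRPL3 higher in H1792, and MRPS5 and MRPS9 lower in H1792.

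In H1792, too, most members were lower with RG7112. The 5 members with the most counts, not scaled to length (MRPL37, MRPL4, MRPL52, MRPL11 and MRPL24) held 36.5% of the summed level with DMSO and 33.4% with RG7112. Of 63 members tested, 23 were called lower and 1 higher, which is 36.5% lower against 16.5% of all genes in that direction (38.1% against 34.1% in both directions, and 1.59% higher against 17.7%). At an unadjusted p under 0.05, 32 were lower (50.8%, against 22.3%) and 1 higher (1.59%, against 23.6%). The members below 0 numbered 49 (77.8%, against 49.5% of all genes), and the median log2 fold change was -0.42, against 0.01 for all genes. With scaling by library size only, the median of all genes moved to 0.27 and that of the members to -0.16, a gap of -0.43 on the log2 scale in both cases, and the calls became 13 lower and 3 higher. With the study's thresholds for DEGs on edgeR's test, 4 members remained, all lower (6.35%, against 14.6% of all genes in both directions and 4.34% in the lower direction). The RG7112 samples lay below the DMSO samples for 30 members (47.6%, against 24.2% of all genes) and above them for 2 (3.17%, against 28.4%).

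MRPS5, a protein near the mRNA entry of the small subunit, had the largest called decrease in H1792. It was at 31.1, 67.9 and 64.0 CPM with DMSO and at 5.79, 15.9 and 5.72 CPM with RG7112. The spread within DMSO was wide, but no samples overlapped (log2 fold change -2.57, SE 0.49, adjusted p = 0.0105). MRPS5 shares its strand and part of its span (chr2:95087207-95149434) with ZNF514, so its counts may include reads of that gene. Whether exons of the genes overlap was not checked. MRPS9, the homolog of a bacterial protein of the small subunit head, was at 76.8, 95.4 and 81.3 CPM with DMSO and at 54.5, 35.7 and 23.8 CPM with RG7112 (log2 fold change -1.18, SE 0.29, adjusted p = 0.0217), again without overlap. MRPL27, whose bacterial homolog reaches to the tRNA ends in the catalytic centre, was at 8.46, 6.53 and 9.27 CPM against 3.42, 2.57 and 4.29 CPM (log2 fold change -1.25, SE 0.34, adjusted p = 0.0302). MRPS34, a mitochondria-specific protein of the small subunit, was at 92.1, 160 and 91.4 CPM against 79.0, 40.7 and 38.6 CPM (log2 fold change -1.15, SE 0.35, adjusted p = 0.0430). These 4 are the DEGs among the members when the study's thresholds are put on edgeR's test. The study used DESeq2, by which MRPL27 did not pass (adjusted p = 0.0532). Of 17 alternatives each, MRPL27 lost its call in 11 and MRPS34 in 10. These include the fits without any 1 of 6 samples for MRPL27 and any 1 of 5 for MRPS34. Where its call was lost, MRPL27 had log2 fold changes from -1.46 to -0.996, while MRPS34 went from -1.29 to -0.85 without 1 sample and to -0.70 with a correction for GC content. MRPS9 lost its call without DMSO replicate 2, DMSO replicate 3 or RG7112 replicate 2, with log2 fold changes of -1.11, -1.21 and -1.14.

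The decreases with the smallest p in H1792 were smaller. MRPL2, which lies close to the peptidyl transferase centre, was at 192, 204 and 209 CPM with DMSO and at 145, 127 and 125 CPM with RG7112 (log2 fold change -0.64, SE 0.09, adjusted p = 0.00428). MRPS11, a protein of the platform of the small subunit, was at 277, 275 and 300 CPM against 199, 164 and 163 CPM (log2 fold change -0.72, SE 0.10, adjusted p = 0.00448). In both genes each RG7112 sample was below each DMSO sample by more than the spread within either group.

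MRPL51 was at 145, 158 and 151 CPM with DMSO and at 108, 88.9 and 97.0 CPM with RG7112 (log2 fold change -0.65, SE 0.10, adjusted p = 0.00506). MRPL37, which is mitochondria-specific, was at 635, 626 and 626 CPM against 504, 478 and 457 CPM (log2 fold change -0.42, SE 0.06, adjusted p = 0.00529). The DMSO samples of MRPL37 lay so close together that this change, small as a fold, was far larger than their spread, but with scaling by library size only it was -0.16 and not called (adjusted p = 0.0641). MRPL52, MRPL55 and MRPS12 also passed, with log2 fold changes of -0.78, -0.87 and -0.76 (adjusted p = 0.00852, 0.0115 and 0.00772). With a correction for GC content these were -0.67, -0.48 and -0.42, at which MRPL55 was no longer called (adjusted p = 0.0501). MRPS12, the homolog of the bacterial protein that guards decoding accuracy, overlaps SARS2 on the opposite strand, which fell as well (log2 fold change -0.56, adjusted p = 0.0107). The other 12 called members had log2 fold changes between -0.63 and -0.33: MRPL4, MRPL11, MRPL17, MRPL24, MRPL40, MRPL43, MRPL53, MRPS7, MRPS16, MRPS21, MRPS24 and MRPS25. MRPL36 was at 58.9, 51.8 and 58.6 CPM with DMSO and at 55.8, 38.1 and 51.5 CPM with RG7112, which overlap (log2 fold change -0.24, SE 0.18, adjusted p = 0.317). This value turned to 0.012 with scaling by library size only.

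MRPL3, which reaches with a long extension into the core of the large subunit, was the 1 member called higher in H1792. Its level was 76.5, 63.6 and 70.8 CPM with DMSO and 133, 135 and 139 CPM with RG7112. The RG7112 samples lay close together and well above DMSO (log2 fold change 0.92, SE 0.10, adjusted p = 0.00313). In A549 MRPL3 was at 49.5, 50.7 and 27.5 CPM with DMSO and at 17.1, 28.8 and 28.2 CPM with RG7112, with overlap (log2 fold change -0.80, adjusted p = 0.200).

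**Figure D3:**
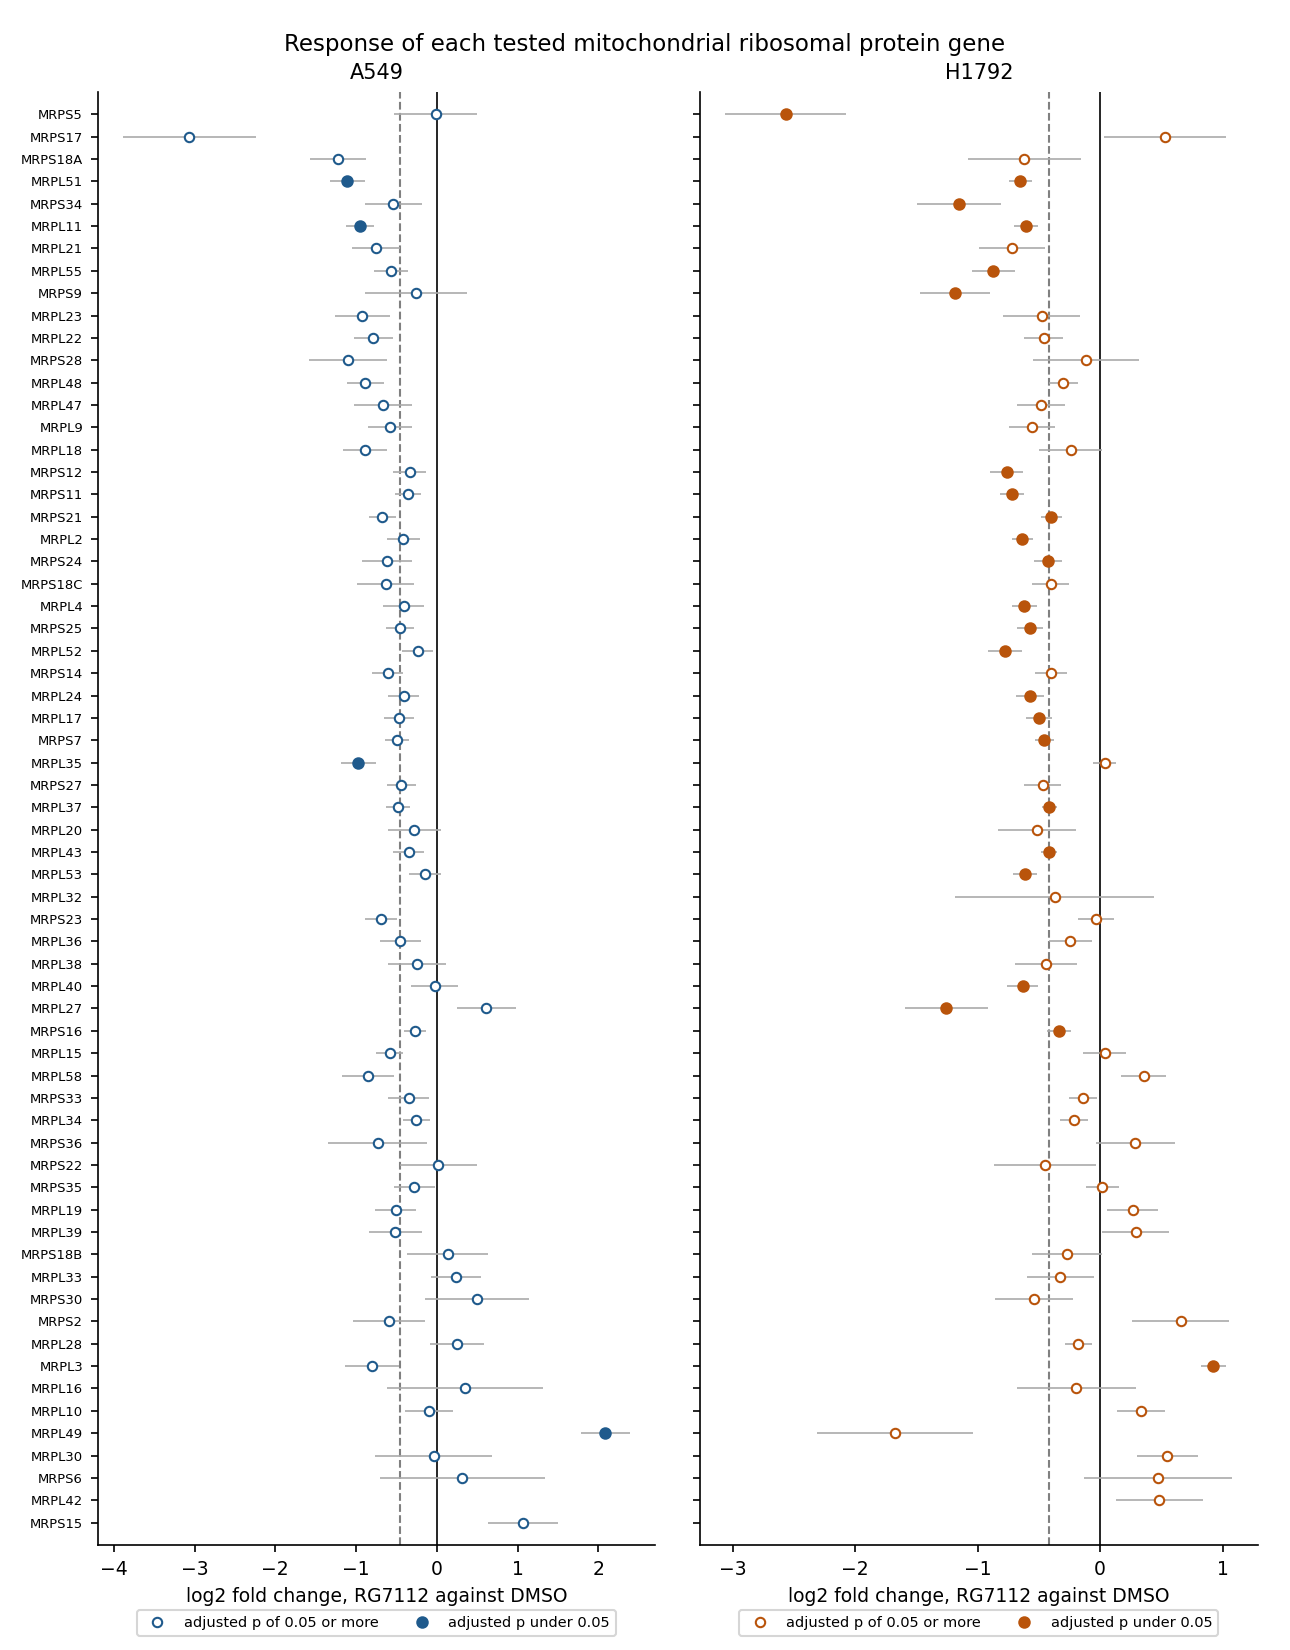
Log2 fold change with RG7112 against DMSO for each member tested in A549 (left) or H1792 (right), with SE as horizontal bars, ordered by the mean of both lines. Filled points passed edgeR's quasi-likelihood test (adjusted p under 0.05), the dashed line is the members' median (-0.45 and -0.42), and most points lie left of 0 in both panels.

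The responses of the members depended on base composition about as much as those of other genes, and in opposite directions in the cell lines. Across the members, the log2 fold change had a Spearman rho with transcript GC content of 0.20 in A549 and of -0.44 in H1792, beside 0.25 and -0.46 across all genes. The members' median GC content, 50.7% and 50.6% among those tested in A549 and H1792, was close to that of all genes (51.0% and 50.3%), but their transcripts were shorter, with medians of 998 and 990 bases against 1719 and 1716. With a correction for GC content, the members' median was -0.45 in A549, where that of all genes was 0.01, and -0.50 in H1792, where that of all genes was -0.08.

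Members lower in both lines were common. Of 61 members tested in both, 40 (65.6%) were below 0 in both lines and 1 was above 0 in both, whereas 24.0% of the 9181 genes tested in both lines were below 0 in both. Sizes did not go together: Spearman's rho between the lines was -0.19 across members and -0.16 across all genes, values given across genes, which are not independent replicates. MRPL11 and MRPL51 were called lower in both lines. In H1792, MRPL11 was at 374, 409 and 413 CPM with DMSO and at 303, 255 and 243 CPM with RG7112 (log2 fold change -0.60, adjusted p = 0.00638). For 11 members (18.0%, against 4.18% of genes) every RG7112 sample lay below every DMSO sample in both lines: MRPL11, MRPL21, MRPL37, MRPL48, MRPL51, MRPL55, MRPS7, MRPS14, MRPS16, MRPS21 and MRPS25. MRPL37 is an example with a decrease of the same size, from 229, 235 and 262 CPM to 161, 160 and 205 CPM in A549 (log2 fold change -0.48, adjusted p = 0.0938).

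**Figure D4:**
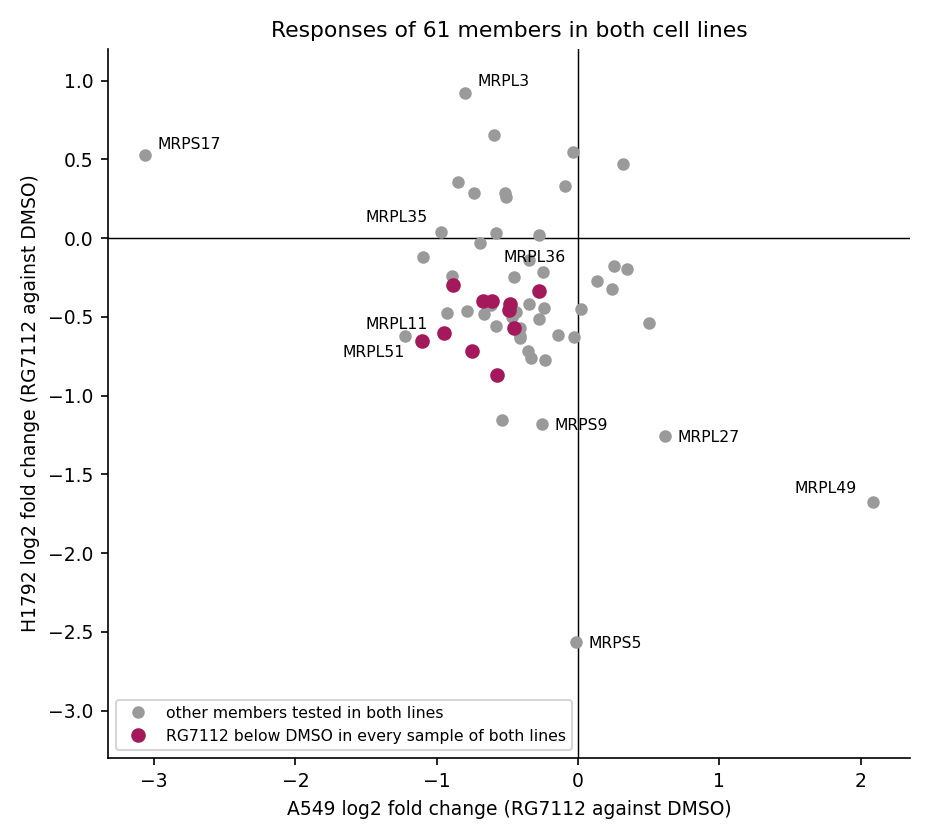
Log2 fold change with RG7112 in A549 (horizontal) and H1792 (vertical) for the 61 members tested in both lines. The 11 members whose RG7112 samples lay below their DMSO samples in both lines are coloured, 40 points lie below 0 on both axes, and MRPL49, MRPS17 and MRPL3 lie apart with opposite signs in the lines.

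The promoters of genes of this kind are often short of a TATA box and rich in sites for ETS factors such as GABP, for NRF1 and for YY1, all known regulators of nuclear genes for mitochondrial proteins. Promoter windows of 300 bases from RefSeq (GRCh38.p14), from 250 bases before to 50 after the start, were found for 61 of the 70 members. Both strands were searched for fixed letters. CCGGAAGT (ETS) was in 11 windows (18.0%), against 4.44% of all 27305 promoters and 9.23% of the promoters of tested genes. AAGATGGCG (YY1) was likewise in 11 (18.0%), against 1.85% and 4.22%. GCATGCGC (NRF1) was in 6 windows (9.84%, against 3.27% and 5.71%), GGGCGG (SP1) in 36 (59.0%, against 44.6% and 70.6%) and TATAAA in 2 (3.28%, against 12% and 5.13%). No motif holds the letters of another, and MRPL38 and MRPL52 held both. The YY1 letters lay after the start in 8 of the 11 members, a share of 72.7% beside 62.8% among all promoters with a match. A match is a description and not a site that was seen to be used. The median log2 fold change of members with and without the YY1 letters was -0.35 and -0.43 in A549 (8 and 46 members) and -0.43 and -0.42 in H1792 (10 and 45). With and without the ETS letters it was -0.24 and -0.45 in A549 (11 and 43 members) and -0.51 and -0.40 in H1792 (11 and 44). These differences were not tested.

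Sites of MRPL22 and of members described elsewhere in the text are shown 5′ to 3′ on the strand of the gene, in windows of 30 bases, because the YY1 and ETS letters were each in 18.0% of the members' windows and in a smaller share of all promoters. Capitals mark the YY1 letters in the first 6 lines and the ETS letters in the next 5, read on either strand. The positions are chr5:1799854-1799883 (minus) for MRPL36, chr14:22829813-22829842 (plus) and chr14:22829870-22829899 (plus) for MRPL52, chr5:154941093-154941122 (plus) for MRPL22, chr6:43687763-43687792 (minus) for MRPS18A, chr6:30617853-30617882 (plus) for MRPS18B and chr5:44808950-44808979 (plus) for MRPS30. For the ETS letters they are chr3:131502985-131503014 (minus) for MRPL3, chr17:50373174-50373203 (minus) for MRPL27, chr12:6493364-6493393 (minus) for MRPL51 and chr16:1773136-1773165 (minus) for MRPS34. The RefSeq start used lay 1529 bases from the GENCODE v29 start for MRPL36 and 579 bases for MRPL51, and at most 131 bases for the others shown. The sites of MRPL36 and MRPL51 thus lie within the GENCODE spans of these genes.
MRPL36: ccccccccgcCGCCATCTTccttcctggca
MRPL52: acccagattcAAGATGGCGacttcctgctt
MRPL22: gtagcgggagggcgaAAGATGGCGgcggca
MRPS18A: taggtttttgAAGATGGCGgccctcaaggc
MRPS18B: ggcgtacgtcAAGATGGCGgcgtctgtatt
MRPS30: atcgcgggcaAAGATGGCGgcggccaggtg
MRPL3: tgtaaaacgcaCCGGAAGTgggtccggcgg
MRPL27: acttttcgagaCCGGAAGTgagtgatcgaa
MRPL51: ggcgctccaaaACTTCCGGcaggcggaccg
MRPL52: aggccacgcctACTTCCGGctaccccggct
MRPS34: ctcttccggtgACTTCCGGccggaccgctg
Of the members shown with the ETS letters, MRPL27, MRPL51, MRPL52 and MRPS34 were called lower in H1792. MRPL3, the only member called higher there, holds them too. The 11 members with the ETS letters had a median log2 fold change of -0.51 in H1792. The part of these letters in the responses was not tested.

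The response differed between the cell lines for few members. In the test of the difference itself, over all 12 samples, 8 of 64 members were called (12.5%, against 21.8% of all genes), 5 with the response of A549 above (7.81%, against 10.4%) and 3 with it below (4.69%, against 11.4%). The median difference, A549 minus H1792, was 0.04 on the log2 scale for the members and 0.02 for all genes, and with scaling by library size only both moved, to -0.36 and -0.37. In that scaling 4 members had a higher and 11 a lower response in A549, in place of the 5 and 3 given.

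MRPL49, higher in A549, was at 34.9, 9.80 and 37.5 CPM with DMSO and at 13.2, 9.35 and 3.57 CPM with RG7112 in H1792, and the difference of responses was 3.82 (SE 0.74, adjusted p = 0.00641). MRPL3 differed the other way, by -1.66 (SE 0.35, adjusted p = 0.00932). MRPL35, lower in A549, was at 110, 125 and 107 CPM with DMSO and at 128, 120 and 110 CPM with RG7112 in H1792, a difference of -0.93 (SE 0.21, adjusted p = 0.0121). That difference shrank to -0.28 with a correction for GC content, at which it was no longer called.

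MRPL27 in A549 was at 4.91, 7.51 and 11.4 CPM with DMSO and at 14.0, 12.1 and 10.8 CPM with RG7112, and its response differed by 1.94 (SE 0.49, adjusted p = 0.0191). MRPS5 in A549 was at 9.22, 18.0 and 28.0 CPM with DMSO and at 15.3, 9.74 and 30.2 CPM with RG7112, with full overlap, and differed by 2.64 (SE 0.78, adjusted p = 0.0351), a call lost in 8 of 23 alternatives. The other 3 had low counts. MRPS15, a small subunit protein, had 8, 68 and 80 counts with DMSO and 8, 6 and 3 with RG7112 in H1792, where the first DMSO sample held no more counts than the first RG7112 sample, and its difference was 4.85 (SE 1.06, adjusted p = 0.0104).

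MRPS17, another small subunit protein, had 21, 20 and 38 counts with DMSO and 3, 0 and 6 with RG7112 in A549, a ratio of 0.124 (95% exact interval 0.0546 to 0.247, counting error only), and its difference was -3.51 (SE 1.00, adjusted p = 0.0301). It shares its strand and part of its span with NIPSNAP2. MRPL32, known as a protein that a protease of the inner membrane must cleave before it joins the ribosome, had 1 count in each A549 DMSO sample and 7, 17 and 15 with RG7112, a ratio of 14.1 (95% exact interval 4.49 to 71.4, counting error only). Its fitted difference of 4.44 (SE 1.36, adjusted p = 0.0406) depends on how such low counts are treated, and its call was lost in 16 of 22 alternatives.

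Without RG7112, most members were lower in A549 than in H1792. Of 64 members tested, 27 were called lower in A549 and 3 higher, in all 46.9% against 47.5% of all genes. By direction the shares were 42.2% lower against 22.0% of all genes, and 4.69% higher against 25.6%. The members below 0 numbered 54 (84.4%, against 47.1% of all genes), and the median difference was -0.61, against 0.09. With scaling by library size only the medians were -0.36 and 0.35, and the calls 20 lower and 5 higher. Under the DEG rule 16 members were lower (25%, against 14.5% of all genes) and none was higher (against 20.4%), while 3 were higher at an unadjusted p under 0.05 in edgeR's test. The A549 samples lay below the H1792 samples for 29 members (45.3%, against 25.9% of all genes) and above them for 4 (6.25%, against 32.6%). These DMSO samples also enter both responses.

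MRPL52 had 107, 119 and 154 CPM in A549 DMSO and 481, 566 and 574 CPM in H1792 DMSO, a log2 difference of -2.16 (SE 0.18, adjusted p = 3.63e-06). MRPL4, whose bacterial homolog lines the tunnel through which new proteins leave, had 137, 163 and 206 CPM against 595, 661 and 629 CPM (log2 difference -1.96, SE 0.21, adjusted p = 2.48e-05). MRPS9 had 6.45, 6.81 and 21.8 CPM against 76.8, 95.4 and 81.3 CPM (log2 difference -2.92, SE 0.53, adjusted p = 0.00102). In all of these the lines were far apart.

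MRPL42 and MRPL32 were low in A549. MRPL42 had 2, 3 and 1 counts in A549 DMSO and 17, 14 and 9 in H1792 DMSO, a ratio of 0.114 (95% exact interval 0.0396 to 0.271, counting error only). MRPL32 had 1 count in each A549 sample and 20, 8 and 1 in H1792, a ratio of 0.0788 (interval 0.0154 to 0.254), with the last H1792 sample no higher in counts than A549. MRPS15 was called lower as well (log2 difference -2.04, adjusted p = 0.0343), with the wide H1792 spread given above.

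In the opposite direction the differences were smaller. MRPS12 had 179, 206 and 244 CPM in A549 DMSO and 131, 143 and 136 CPM in H1792 DMSO (log2 difference 0.55, adjusted p = 0.0299). MRPL19 had 31.6, 33.4 and 28.5 against 21.0, 21.1 and 15.2 CPM (log2 difference 0.63, adjusted p = 0.0470), and MRPL15 52.2, 59.2 and 55.0 against 41.3, 29.4 and 40.9 CPM (log2 difference 0.52, adjusted p = 0.0185). None of the 3 overlapped between the lines, yet the calls of MRPL15 and MRPL19 were lost with a correction for GC content, and each of the 3 was lost without H1792 DMSO replicate 2, among others (0.59 for MRPS12, 0.72 for MRPL19 and 0.37 for MRPL15). MRPL36 was lower in A549 (33.2 ± 5.46 against 56.4 ± 3.99 CPM, n = 3, log2 difference -0.83, SE 0.22, adjusted p = 0.00843).

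**Figure D5:**
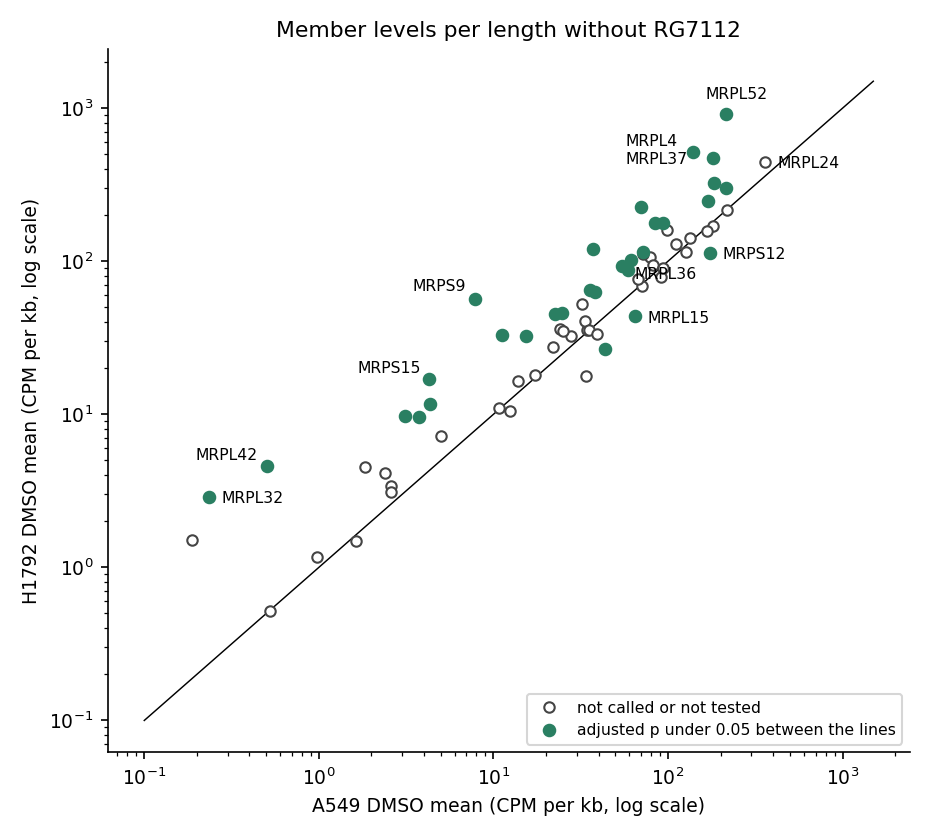
Mean level per length (CPM per kb of median protein-coding transcript length, both axes logarithmic) in A549 DMSO and H1792 DMSO for the 68 members above 0 in both. Filled points passed the test between the lines (adjusted p under 0.05), the line marks equal levels, and most filled points lie above it, on the side of H1792, with MRPL52, MRPL4 and MRPL37 at the top.

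Levels can be compared between genes only per length. Over all 12 samples the highest members were MRPL52 with 468, MRPL24 with 345, MRPL37 with 287, MRPL4 with 275 and MRPL11 with 205 CPM per kb of transcript, and the median of the 70 was 33.9 CPM per kb. These top 5 are all of the large subunit. The order differed between the lines: in A549 DMSO, MRPL24 (358 ± 58.5 CPM per kb, n = 3) was above MRPL52 (216 ± 41.8), and MRPL43 (218 ± 32.7), MRPL51 (216 ± 53.6), MRPL11 (183 ± 28.7), MRPL17 (182 ± 31.5) and MRPL37 (182 ± 13.2) did not differ from MRPL52 beyond their spread. In H1792 DMSO, MRPL52 (922 ± 88.3) stood above MRPL4 (516 ± 27.1), MRPL37 (473 ± 4.07) and MRPL24 (445 ± 28.3), and the latter 2 lay within about the spread of each other.

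At the other end were MRPL45 with 0.0658, MRPS31 with 0.0895, MRPL1 with 0.508, MRPL13 with 0.714 and MRPL54 with 0.907 CPM per kb over all samples. With MRPL46 these are the 6 members that had too few counts to be tested in any comparison: at most 8 counts in a sample for MRPL45, 3 for MRPS31, 5 for MRPL1, 7 for MRPL13, 7 for MRPL54 and 12 for MRPL46. Other genes of mitochondrial gene expression that cells use in general were likewise near 0 in these counts (TRMT10C at 0 in all samples, LRPPRC at most at 0.843 CPM), so a level near 0 is read here as low in this table and not as absence from the cells. MRPL32 and MRPL42 were not tested in A549 and MRPS15 was not tested in H1792 for the same reason.

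By origin, 66 of the 70 members fall into 4 lists. MRPL47, MRPS18A, MRPS18B and MRPS36 were left out of them, although MRPS18A and MRPS18B also descend from a bacterial protein. Of large subunit proteins with bacterial homologs, 2 of 23 tested were called lower in A549 (none higher) and 6 of 24 in H1792 (1 higher), beside 4.03% and 16.5% of all genes called lower in these lines, with medians of -0.45 and -0.35. Of mitochondria-specific large subunit proteins, 1 of 13 was lower and 1 higher in A549, and 7 of 14 were lower in H1792, with medians of -0.35 and -0.49. Of small subunit proteins with bacterial homologs, none of 15 was called in A549 by edgeR (4 lower and 1 higher at an unadjusted p under 0.05, 3 lower by DESeq2) and 8 of 14 were lower in H1792, with medians of -0.49 and -0.40. Of mitochondria-specific small subunit proteins, none of 7 was called in A549 by edgeR (3 lower at an unadjusted p under 0.05, 1 lower by DESeq2) and 2 of 7 were lower in H1792, with medians of -0.44 and -0.45. All 8 medians were thus well below those of all genes.

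Several members carry a symbol that differs from their place or task. MRPS18A, MRPS18B and MRPS18C descend from 1 bacterial protein, and MRPS18A sits in the large subunit. MRPS18A was at 12, 18.9 and 10.9 CPM with DMSO and at 6.76, 4.18 and 6.92 CPM with RG7112 in A549, with no overlap (log2 fold change -1.22, adjusted p = 0.0770), and had a log2 fold change of -0.62 in H1792 (adjusted p = 0.333). MRPS18B had 0.13 and -0.27, and MRPS18C -0.63 and -0.40, in A549 and H1792 (adjusted p between 0.0785 and 0.904), so none of the 3 passed in either line. MRPS30 is a large subunit protein (0.50 and -0.54). MRPS36 is now known as a subunit of the 2-oxoglutarate dehydrogenase complex (-0.73 and 0.29). MRPL58, a hydrolase that frees peptides from stalled ribosomes and is built into the large subunit, had -0.85 and 0.36. None of the last 3 was called.

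Genes that work with the mitochondrial ribosome, in lists by task, had 0 to 2 calls each in A549 and 1 to 5 in H1792. Among all genes tested, 4.03% were called lower and 4.35% higher in A549, and 16.5% and 17.7% in H1792. Of 4 ribosomal proteins named otherwise (DAP3, PTCD3, AURKAIP1 and CHCHD1), AURKAIP1 fell in H1792 (log2 fold change -0.79, adjusted p = 0.00317), and no other call was made in either line by edgeR (2 lower in A549 at an unadjusted p under 0.05, none by DESeq2). Of 12 mitochondrial translation factors tested, none was called in A549 by edgeR (1 lower at an unadjusted p under 0.05 and 1 by DESeq2), and in H1792 3 rose and 2 fell, so that the elongation factors divided: TUFM fell (-1.78, adjusted p = 0.00529), whereas GFM1 (0.96, adjusted p = 0.00356) and GFM2 (0.81, adjusted p = 0.0106) rose. Of 23 assembly factors, 2 fell in A549, C1QBP (-1.02, adjusted p = 0.00851) and MALSU1 (-1.03, adjusted p = 0.0392), and 2 in H1792, MTG1 (-0.79, adjusted p = 0.0117) and RPUSD3 (-0.35, adjusted p = 0.0198). Of 13 mitochondrial aminoacyl-tRNA synthetases tested in each line, none was called in A549 by edgeR (1 lower and 1 higher at an unadjusted p under 0.05, none by DESeq2) and 3 fell in H1792, among them SARS2 and CARS2 (-1.83, adjusted p = 0.0132). Their medians were -0.61, -0.21, -0.32 and -0.22 in A549 and -0.41, -0.10, -0.17 and -0.13 in H1792, in the order given. The 82 cytosolic ribosomal protein genes tested in A549 had a median of -0.24 with 2 called lower, and the 81 tested in H1792 had -0.54 with 58 called lower and 1 higher. Whether the members and these lists differed was not tested.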

How the data were processed

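RNA-seq of 12 samples was analysed, from 4 groups of 3 by cell line and treatment, mapped by titles and column names. The deposited values are expected counts: whole numbers per gene that the authors estimated with kallisto 0.45.0 on Ensembl release 95 (GRCh38) and summed from transcripts, without normalization between samples. Such estimates share reads between overlapping genes and copies, including pseudogenes. All per-sample columns were used. Symbols, coordinates, base composition and lengths came from GENCODE v29, where 18011 identifiers were found and 2584 were not. No member had counts identical to another gene's.

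Members and lists were chosen with earlier results of these data known. Low genes were removed with filterByExpr (at least 10 counts in enough samples, and 15 in total), and the rest normalised by TMM and tested with edgeR 4.0.16 (R 4.3.3, quasi-likelihood F test, robust dispersion, Benjamini-Hochberg over all genes tested). Each response was fitted on the 6 samples of its line, and the difference of responses and the comparison of the DMSO groups on all 12 samples. The DEG rule here adds the study's threshold, an absolute log2 fold change over 1, to edgeR's test, whereas the study used DESeq2. Errors are SDs over 3 samples or SEs of the fit. Ratios of low counts have 95% Clopper-Pearson intervals, which cover counting error only, as floors of 3 counts do. The procedure was run on simulated data with less spread than these samples and with larger changes than most members had. That run therefore says little about the small changes of the members.

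Named were MRPL36, up to 8 called members per direction with the largest change and up to 4 with the smallest p per response, up to 6 per direction for the difference and between DMSO groups, the 5 highest and lowest per length, untested members, members whose symbol misleads, up to 3 called genes per further list, MYC, NRF1, GABPA, PPARGC1A and TFAM. The 11 members lower without overlap in both lines, and the other called members, were named after their values were seen. A further called gene of these lists is not reported here. The NRF1 letters were set after a longer form had been searched. Alternatives were DESeq2 1.42.0, limma-trend (limma 3.58.1, prior count 2), size factors by RLE, scaling by library size, all genes unfiltered, at least 10 counts in every sample, annotated genes only, a GC correction (loess span 0.5), the replicate number as a block, both together, all 12 samples in one fit, only the DMSO samples, stricter thresholds, another length and leaving out each sample.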

Additional observations from a re-analysis of the deposited data

Results flagged for a closer look

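For 8 members the response in A549 minus that in H1792 passed edgeR's test of the difference itself (adjusted p under 0.05), which is what singled them out. The difference was positive for MRPS15 (4.85 on the log2 scale), MRPL32 (4.44), MRPL49 (3.82), MRPS5 (2.64) and MRPL27 (1.94), and negative for MRPS17 (-3.51), MRPL3 (-1.66) and MRPL35 (-0.93). MRPS15, MRPL32 and MRPS17 had fewer than 10 counts in every sample of 1 of their groups. The share called, 12.5% of 64 members, was below the 21.8% of all genes. No group had the 4 samples that a search for a single outlying sample needs.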

How the results depend on the processing

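The medians of both responses and of the DMSO comparison kept their sign in every alternative run. The median of A549 moved most toward 0 without DMSO replicate 3, to -0.33. Called members numbered 4 in A549, 24 in H1792, 8 for the difference and 30 between DMSO groups. In A549 the number became 12 with DESeq2, 8 with library size only, 7 with the GC correction, 14 with all 12 samples in one fit, 7 without replicate 3 of both treatments (added after the data were seen), 1 at an adjusted p under 0.01 and 2 under the DEG rule. In H1792 it became 13 at the stricter p and 4 under the DEG rule. For the difference it became 15 with library size only and 2 at the stricter p, and between DMSO groups 17 and 16 under the stricter p and the DEG rule. Leaving out 1 sample gave 1 to 3, 17 to 29, 5 to 10 and 21 to 33. The lowest count for the difference came without A549 DMSO replicate 1, H1792 DMSO replicate 2 or H1792 RG7112 replicate 2. MRPL36 in H1792 turned to 0.012 with library size only. With merged exon lengths the median level per length was 17.4 CPM per kb in place of 33.9. The summed level of H1792 DMSO was 6462 CPM by library size only, in place of 7099. Among single named members, 71, 189, 145 and 170 values kept their side of the threshold, in the order given, and 19, 31, 36 and 32 lost the call. The causes were not tested.

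The replicate numbers did not pair the samples throughout. Deviations of same-numbered samples from their group means correlated at 0.145, 0.0668 and 0.293 in A549 and at -0.0386, -0.0182 and -0.000216 in H1792. In A549 the samples numbered 3 went together, and their correlations with samples of other numbers were -0.232 to -0.140. In neither line did each sample correlate best with its own number. With the replicate number as a block, 8, 17, 6 and 29 members were called, and with the block and the GC correction 13, 14, 3 and 35. Depth limits the members under 10 counts, for which changes may be missed.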

Other observations

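Regulators of nuclear genes for mitochondrial proteins were mostly lower with RG7112 in A549 and mostly higher in H1792. In A549, 8 of 9 tested were below 0 (88.9%, against 50.9% of all genes), with a median log2 fold change of -0.35. In H1792, 2 of 9 were below 0 (22.2%, against 49.5%) and 7 above, with a median of 0.54. MYC, a transcription factor that drives ribosome and mitochondrial biogenesis, fell in A549 from 83.7 to 33.8 CPM (log2 fold change -1.32, adjusted p = 0.00949 by edgeR's quasi-likelihood test) and rose in H1792 from 472 to 746 CPM (0.64, adjusted p = 0.00928), and the responses differed by -1.87 (adjusted p = 0.000245). TFAM, which packages the mitochondrial genome and takes part in starting its transcription, was at 18.5 and 7.93 CPM with DMSO and RG7112 in A549 (-1.22, adjusted p = 0.0516) and rose from 18.2 to 34.8 CPM in H1792 (0.91, adjusted p = 0.0174). YY1 rose in H1792 (1.23, adjusted p = 0.0466) and so did GABPB1 (0.54, adjusted p = 0.0176). NRF1 had log2 fold changes of -0.99 and 0.62 and GABPA of 0.67 and 0.24 in A549 and H1792, none of them called. PPARGC1A had no count in any sample, which allows up to 1.39 CPM in the shallowest library. Of 9 regulators tested, 1 fell in A549 (4 were lower at an unadjusted p under 0.05, 2 by DESeq2), and 4 rose and 1, PPRC1, fell in H1792 (-1.58, adjusted p = 0.0112). Among all genes tested, 4.03% were called lower in A549, and 17.7% higher and 16.5% lower in H1792.

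Other genes for mitochondrial proteins, listed as measures of mitochondrial content, were mostly lower. Of 10 tested, none was called in A549 by edgeR's test (5 lower at an unadjusted p under 0.05, 2 by DESeq2, median log2 fold change -0.49), and in H1792 6 fell and 2 rose (median -0.65). Among all genes tested in H1792, 16.5% were called lower and 17.7% higher. The chaperone genes went apart in H1792: HSPD1 fell from 219 to 12.9 CPM (-4.13, adjusted p = 0.00366) and HSPA9 rose from 13.3 to 68.9 CPM (2.36, adjusted p = 0.0126). TOMM40, the channel for protein import, fell in H1792 (-0.66, adjusted p = 0.00439) and had -0.71 in A549 (adjusted p = 0.103). Of 9 genes of mitochondrial RNA synthesis and processing tested in H1792, POLRMT, the RNA polymerase of mitochondria, fell (-1.85, adjusted p = 0.00482), SUPV3L1 fell (-1.10, adjusted p = 0.00467) and TFAM rose.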
